A study of Mus musculus with 33 samples.

Results

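The genes described here are 33 immediate early and heat shock genes, chosen by symbol from the 55401 genes of a count table of mouse frontal bone. The symbols were not chosen from a threshold on the counts, but they were chosen with earlier results of these data known. Counts of members beside the share of all genes therefore describe this set and do not test it. All 33 symbols were found in the table, 24 of them immediate early genes and 9 heat shock genes. RNA sequencing of polyadenylated RNA was available for 33 libraries, 3 at each of 11 stages. The stages are evenly spaced from E8.5 over E9 to E12.5, followed by E13.5 and E14.5. All libraries are labelled as frontal bone of the calvaria, the front part of the skull roof, and differ by embryonic day alone. Strain, genotype and dissection are not stated in the labels, nor whether a stage's 3 libraries come from different embryos or pools, so the p-values measure the spread between these libraries, which may be technical. The letters a, b and c name the libraries of a stage.

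Immediate early genes are transcribed within minutes of a growth factor, cytokine, calcium or stress signal and need no new protein, because the factors that switch them on, such as serum response factor with its Elk and MRTF partners and CREB, are already bound or waiting in the cell. Many encode transcription factors (the AP-1, EGR, KLF and NR4A families) and others encode brakes on the same signals, and their RNAs decay quickly. Heat shock genes encode chaperones that fold proteins and are driven by heat shock factor during stress, while some of them are also made at high levels in every growing cell. Both sets are known to respond to the cutting and warming of tissue as well as to development, and the labels give no dissection or holding time for any stage, so stage and collection cannot be told apart at E8.5.

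The stretches below lie just upstream of the transcription starts of 5 members that stood high at E8.5, and are shown because these genes have the contrast between E8.5 and E9 that the results turn on. Sequences are from RefSeq, build GRCm38.p6, read 5′ to 3′ on the gene's strand, and each stops where an annotated exon begins. Capitals mark the motif searched for that was found: TATAAA in Fos, the EGR site GCGNGGGCG in Fosb, a CArG box, the site of serum response factor, in Egr2 (at one of its RefSeq starts), and the heat shock element GAANNTTC or TTCNNGAA in Jun and Hspa1a.
Fos, chr12:85473640-85473889, plus strand: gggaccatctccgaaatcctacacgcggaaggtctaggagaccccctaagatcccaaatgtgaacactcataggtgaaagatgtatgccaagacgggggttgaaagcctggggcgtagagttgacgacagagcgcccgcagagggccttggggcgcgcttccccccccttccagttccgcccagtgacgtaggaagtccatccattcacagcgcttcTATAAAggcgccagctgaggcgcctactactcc
Fosb, chr7:19310052-19310295, minus strand: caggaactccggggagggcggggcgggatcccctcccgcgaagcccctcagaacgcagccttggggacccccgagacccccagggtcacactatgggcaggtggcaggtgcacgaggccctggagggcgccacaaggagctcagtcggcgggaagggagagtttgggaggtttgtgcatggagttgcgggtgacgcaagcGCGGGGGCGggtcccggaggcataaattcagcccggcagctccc
Egr2, chr10:67537619-67537868, plus strand: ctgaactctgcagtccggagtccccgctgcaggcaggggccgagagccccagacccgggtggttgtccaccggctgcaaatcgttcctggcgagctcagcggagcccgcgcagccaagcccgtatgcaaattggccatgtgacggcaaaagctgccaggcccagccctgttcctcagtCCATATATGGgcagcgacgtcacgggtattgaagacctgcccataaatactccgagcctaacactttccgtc
Jun, chr4:95052223-95052472, minus strand: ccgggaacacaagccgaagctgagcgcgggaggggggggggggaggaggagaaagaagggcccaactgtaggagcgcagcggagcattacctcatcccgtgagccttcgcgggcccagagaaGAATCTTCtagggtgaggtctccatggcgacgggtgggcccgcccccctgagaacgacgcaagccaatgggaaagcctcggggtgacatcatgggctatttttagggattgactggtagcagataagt
Hspa1a, chr17:34972157-34972406, minus strand: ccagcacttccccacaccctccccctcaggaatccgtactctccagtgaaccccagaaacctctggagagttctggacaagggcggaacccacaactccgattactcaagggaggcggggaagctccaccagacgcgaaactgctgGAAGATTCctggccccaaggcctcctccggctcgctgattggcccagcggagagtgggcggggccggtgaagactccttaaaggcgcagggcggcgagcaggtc

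A promoter window of 300 bases was at hand for 27 of the 33 members, and both strands were searched. Of these 27, 9 held a heat shock element (Fosl2, Jun, Egr2, Hspa1a, Hspa1b, Hsph1, Hspb1, Hspd1 and Hspe1), against 17.0% of the 27025 genes with a window. An EGR site was found in 10 members (Fosb, Fosl2, Zfp36, Klf2, Klf4, Btg2, Nr4a1, Nr4a2, Socs3 and Gadd45b), against 6.27% of genes. A CArG box was found in Egr2 and Zfp36 (1.81% of genes), the cyclic AMP response element TGACGTCA in Dusp1 and Btg2 (2.03%), TATAAA in 5 members (15.7%) and the AP-1 site TGANTCA in none of the 27 (8.97%). The 3 overlapping heat shock elements of Hspd1 and Hspe1 are the same bases, since the 2 genes start back to back on chromosome 1. The 250 bases before Hspa1a and Hspa1b are identical at 247 positions. These are matches of letters in a short window, and a motif that was not matched may lie outside it.

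The libraries held 14516518 to 19964404 counts each (median 17081223). Levels are given as CPM, the reads of a gene set against all reads of its library after TMM scaling, as mean ± SD over 3 libraries unless single libraries are listed, and changes as log2 fold changes with an approximate SE from edgeR's quasi-likelihood test over 20073 genes. A gene was called at a Benjamini-Hochberg adjusted p below 0.05 over all of them. The filter on low counts kept 32 members. Fosl1, an AP-1 partner, was left out, and its highest level in any library was 0.981 CPM. The E12 libraries stood apart from one another (correlations of log2 CPM from 0.9649 to 0.9856), with 4.71% to 9.48% of counts in ribosomal protein genes, and library c of E13.5 had 6.79% against 4.06% and 4.02% in a and b. The osteoblast genes Runx2 and Ibsp were close to 0 at E8.5 (0.576 ± 0.12 and 0.278 ± 0.18 CPM) and reached 45.1 ± 3.1 and 464 ± 14 by E14.5. They belong to a list of 10 mesenchyme and osteoblast markers that summed to 255 to 262 CPM at E8.5. The E8.5 libraries thus carry the tissue label with little RNA of Runx2 and Ibsp, but not without every marker of the list.

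From E8.5 to E9, 21 of the 32 tested members fell and 1 rose, where 7.66% of all tested genes were called lower and 12.53% higher. The members were chosen with earlier results of these data known, so this difference is descriptive. Of the immediate early genes 13 of 23 fell, and of the heat shock genes 8 of 9. The median log2 fold change was -0.46 over the members and 0.03 over all tested genes. The sizes spread widely. Of the members, 9 fell by more than 2-fold (1.53% of all tested genes), namely Fos, Fosb, Jun, Junb, Egr1, Egr2, Egr3, Klf4 and Hspa1a, and 5 of these by more than 4-fold (0.633%): Fosb, Fos, Egr2, Egr1 and Egr3. The largest falls were therefore in FOS and EGR genes, while the abundant chaperones fell by less than 1.5-fold.

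**Figure D1:**
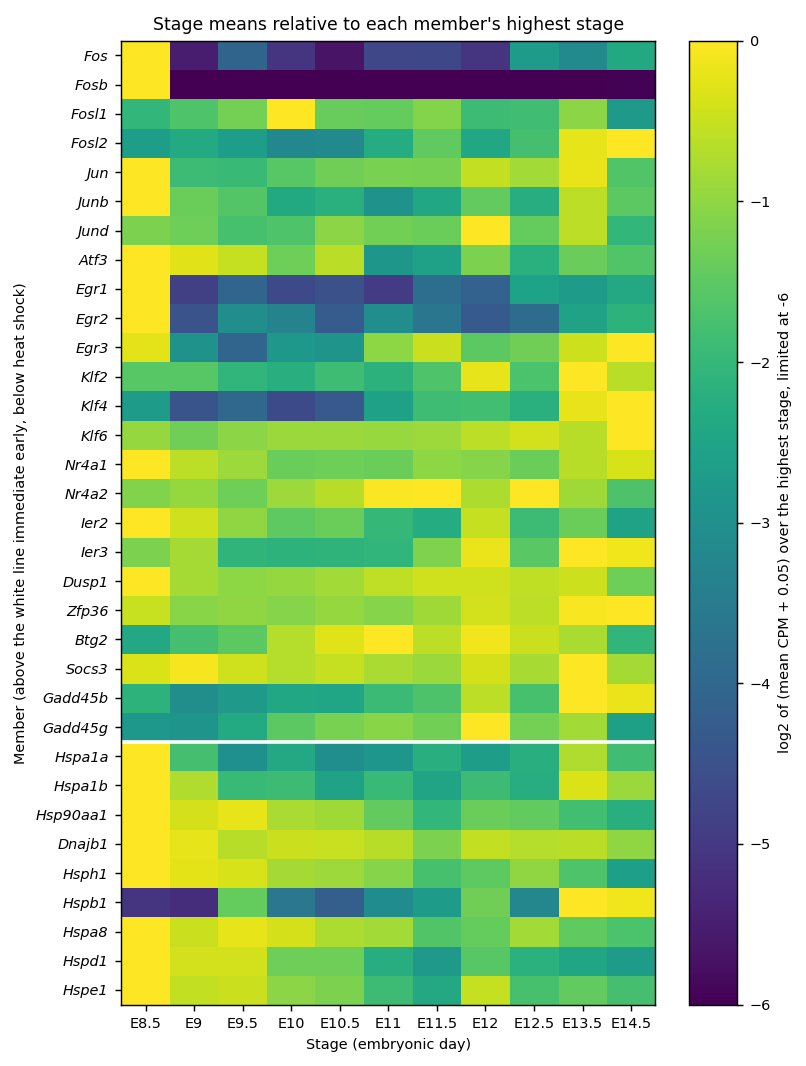
Mean CPM of the 33 members at each stage, as log2 of the mean plus 0.05 CPM relative to the member's own highest stage, limited at -6. Each row is a member and each column a stage (embryonic day), and the white line separates immediate early from heat shock genes. The E8.5 column is the highest for 18 of the 32 tested members (12.2% of all tested genes), and E13.5 or E14.5 for 10 (28.1%).

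FOS and JUN proteins pair as AP-1, the factor that binds TGANTCA sites. In the 3 E8.5 libraries Fosb had 39.8, 44.7 and 44.1 CPM and in the E9 libraries 0.118, 0.229 and 0.205. The groups were far apart, and Fosb was at no more than 0.975 CPM in any of the 30 later libraries. Its log2 fold change of -7.81 ± 0.37 (adjusted p = 9.43e-16) rests on 1951 counts over E8.5 and 9 over E9. The 3 E8.5 libraries held 26.6, 28.8 and 28.1 CPM of Fos and the E9 libraries 0.471, 0.459 and 0.753, a change of -5.64 ± 0.34 (adjusted p = 3.95e-13). As with Fosb, the lowest E8.5 library was above every later library, the highest of which was an E14.5 library at 6.16 CPM.

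Jun, the main partner of FOS proteins, fell less in ratio and more in level. Its libraries held 167, 171 and 169 CPM at E8.5 and 43.5, 45.8 and 47.8 at E9, a change of -1.89 ± 0.09 (adjusted p = 6.99e-16). Unlike Fos, Jun came back: library c of E13.5 reached 173 CPM, above all 3 E8.5 libraries, with 134 and 132 in a and b. Junb, another partner, was at 19.0, 13.8 and 17.4 CPM at E8.5 and 6.89, 6.71 and 6.09 at E9 (-1.35 ± 0.21, adjusted p = 2.32e-05). Its 15.6 CPM in library c of E13.5 overlapped the E8.5 libraries. Jund, the AP-1 gene that cells keep on at rest, was not called at this step (-0.15 ± 0.24, adjusted p = 0.724). Fosl2 (0.33 ± 0.21, adjusted p = 0.297) and Atf3, a stress factor of the same protein class (-0.28 ± 0.19, adjusted p = 0.325), were not called either.

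The EGR genes encode zinc finger factors that bind GC-rich sites, and all 3 fell. Egr1 went from 63.5, 63.2 and 58.5 CPM in the E8.5 libraries to 1.88, 2.52 and 1.78 in those of E9, a change of -4.89 ± 0.19 (adjusted p = 1.48e-17). Egr2, which is also a segment gene of the hindbrain and a gene of myelinating Schwann cells, was at 3.51, 2.06 and 3.45 CPM against 0.0589, 0 and 0.205 (-5.08 ± 0.77, adjusted p = 1.72e-05). The E9 level of Egr2 rests on 4 counts over 3 libraries, so the size of that fall is loosely known although the groups do not overlap. Egr3 was at 1.47, 2.13 and 1.64 CPM against 0.294, 0.115 and 0.274 (-2.92 ± 0.54, adjusted p = 0.000241). Egr1 and Egr2 were higher in every E8.5 library than in all 30 later ones, while the E14.5 libraries of Egr3 (2.41, 1.77 and 2.06 CPM) lay among or above its E8.5 values.

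**Figure D2:**
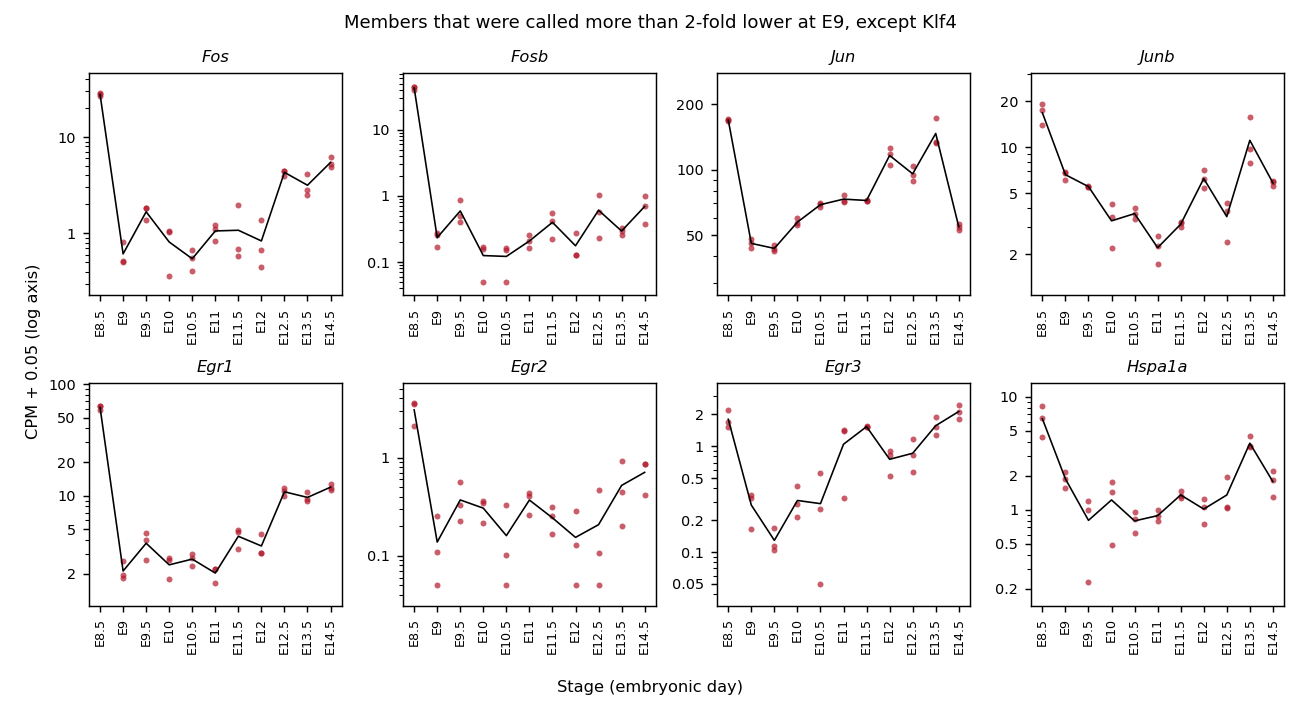
CPM plus 0.05 on a log axis for 8 of the 9 members that fell by more than 2-fold at E9, by stage. Points are single libraries and the line joins the stage means. Fos, Fosb, Egr1 and Egr2 have their 3 E8.5 points above all others, whereas Jun, Junb, Egr3 and Hspa1a have later points at or near the E8.5 level.

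Of the KLF genes, Klf4 fell most. Klf4, a zinc finger factor of epithelia and of pluripotent cells, went from 4.63, 5.54 and 6.02 CPM to 1.30, 1.32 and 2.12 (-1.79 ± 0.20, adjusted p = 1.06e-07), without overlap. Klf6 fell by 0.35 (SE 0.11, adjusted p = 0.0253), a call that was lost without any 1 of 4 libraries (E8.5 b or c, E9 a or c, adjusted p from 0.0785 to 0.0973), and Klf2 was not called (-0.0017 ± 0.25, adjusted p = 1). Nr4a1, a nuclear receptor that acts without a ligand, fell by 0.60 (SE 0.14), and Nr4a2 was not called (0.18 ± 0.14).

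Among the brakes on signalling, Dusp1, a phosphatase of MAP kinases, fell by 0.82 (SE 0.13), Gadd45b, a stress and growth arrest gene, by 0.92 (SE 0.21), and Zfp36, which speeds the decay of cytokine RNAs, by 0.57 (SE 0.20, adjusted p = 0.0362). The call of Zfp36 was lost without E8.5 b or c or E9 a or c (adjusted p from 0.0532 to 0.226). Btg2, an antiproliferative gene, was the only member that rose at E9. It went from 16.3, 19.2 and 17.1 CPM at E8.5 to 26.4, 28.2 and 26.1 (0.62 ± 0.08, adjusted p = 1.11e-06), with no overlap. Ier2, Ier3, Socs3 and Gadd45g were not called. Ier2 came closest (-0.44 ± 0.17, adjusted p = 0.0688), and its E8.5 libraries (124, 115 and 111 CPM) were all above its E9 libraries (90.2, 85.8 and 82.7). Ier2 was called lower by DESeq2 (adjusted p = 0.0451) and in edgeR with no filter on counts (0.0110), with a trend with gene length removed (0.00519), with all libraries of E11.5, E12 and E13.5 left out (1.08e-06) and with the E8.5 and E9 libraries alone in the fit (3.19e-09). In that last fit Jund was also called lower (-0.17, adjusted p = 0.0128) and Socs3 higher (0.24, adjusted p = 0.0312).

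The heat shock members fell by less than the FOS and EGR genes, with the inducible Hsp70 gene at the top. Hspa1a was at 8.14, 6.46 and 4.33 CPM at E8.5 and 1.83, 2.12 and 1.51 at E9 (-1.78 ± 0.34, adjusted p = 0.00029). Its near-identical neighbour Hspa1b was at 15.02, 12.4 and 14.0 CPM against 8.77, 8.66 and 7.87 (-0.71 ± 0.15, adjusted p = 0.00107). Neither gene's groups overlapped, but 48.6% of the 100-base windows of Hspa1a and 49.9% of those of Hspa1b also occur in other genes, chiefly each other, so the division of reads between the 2 is uncertain.

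The chaperones that cells make at all times fell by small and even amounts. Hspa8, the constitutive Hsp70, went from 3904 ± 69 to 2804 ± 63 CPM (-0.48 ± 0.09), Hsp90aa1 from 2088 ± 61 to 1585 ± 66 (-0.40 ± 0.08) and the mitochondrial chaperonin Hspd1 from 1593 ± 42 to 1198 ± 42 (-0.41 ± 0.09). Its cap Hspe1 fell by 0.55 (SE 0.17), the Hsp110 gene Hsph1 by 0.25 (SE 0.07) and the co-chaperone Dnajb1 by 0.23 (SE 0.08). The last 3 calls were lost in some fits of all stages with 1 library left out. Dnajb1 lost its call without any 1 of the 6 libraries (adjusted p from 0.0659 to 0.146), Hspe1 without E9 b or c (0.0563 and 0.0657) and Hsph1 without E9 c (0.0538). All 3 were called with the E8.5 and E9 libraries alone in the fit, and with all libraries of E11.5, E12 and E13.5 left out. With no filter on counts Hsph1 and Dnajb1 were not called (adjusted p = 0.240 and 0.380), nor was Dnajb1 with the column letter as a replicate block (0.0560). With libraries scaled by their totals alone, Klf6, Hsph1 and Dnajb1 were not called (adjusted p = 0.0901, 0.136 and 0.118). The small heat shock protein Hspb1 was the exception, with 0.821 ± 0.26 CPM before and 0.744 ± 0.25 after the step, and not called (adjusted p = 0.868). Several of these genes have processed copies in the genome, and 38.0% of the windows of Hsp90aa1, 28.2% of Hspa8 and 23.4% of Hspd1 occur elsewhere.

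**Figure D3:**
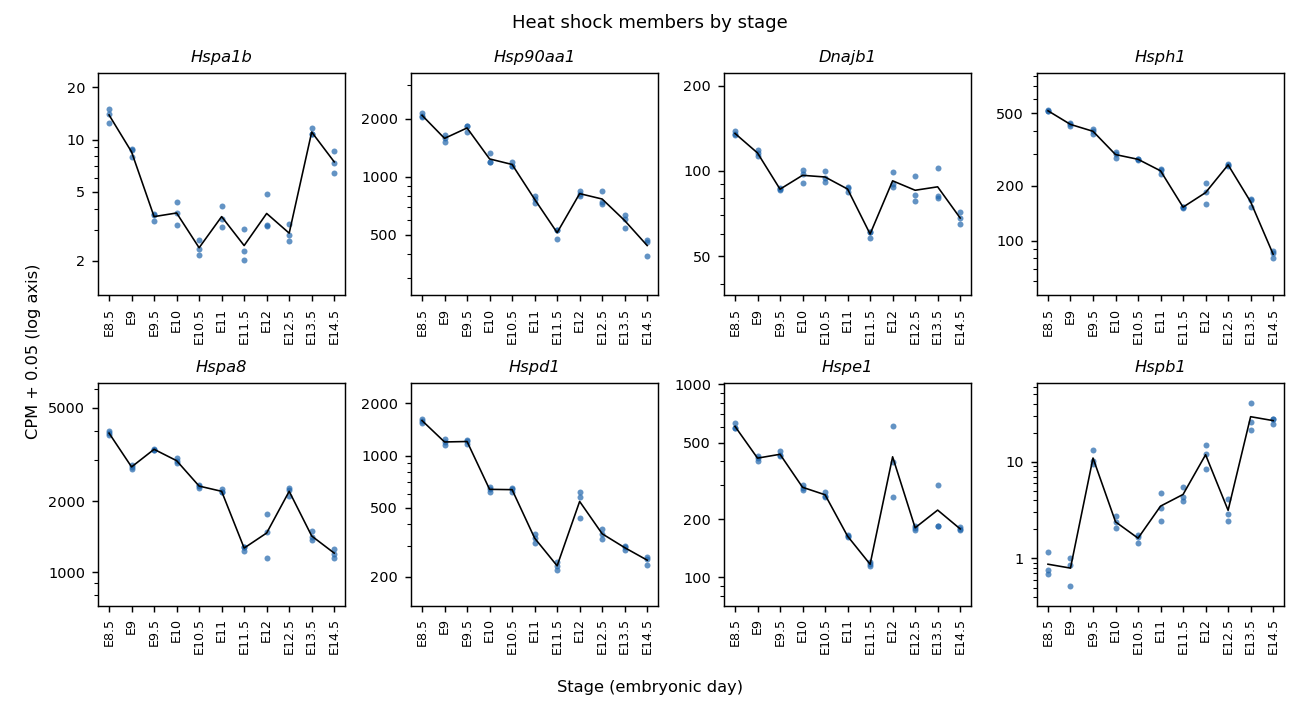
CPM plus 0.05 on a log axis for 8 heat shock members by stage, with single libraries as points and stage means as a line. All but Hspb1 have their highest mean at E8.5, and Hspb1 has separate peaks at E9.5 and E12 and is higher than at either at E13.5 and E14.5.

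Set against the mean of the 10 later stages, E8.5 was higher for 19 members and lower for 7, where 29.5% and 33.9% of all tested genes were called. For 13 members, all 3 E8.5 libraries lay above all 30 later ones, against 5.12% of tested genes: Fos, Fosb, Egr1, Egr2, Ier2, Dusp1, Nr4a1, Hspa1b, Hsp90aa1, Dnajb1, Hsph1, Hspa8 and Hspd1. Btg2 alone lay below all later libraries (5.34% of tested genes), and no longer did once a trend with gene length was removed. The mean difference was 7.50 ± 0.15 on the log2 scale for Fosb, 4.35 ± 0.15 for Fos, 3.87 ± 0.09 for Egr1 and 3.76 ± 0.36 for Egr2. It was 1.23 ± 0.05 for Jun and between 0.66 and 1.74 for Dnajb1, Hspa8, Hsph1, Hsp90aa1, Hspa1b and Hspd1. Jun, Junb, Atf3, Hspa1a and Hspe1 had their E8.5 libraries above those of 9 of the 10 later stages.

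The shape after E9 sorts these members further. For Fos, Fosb, Egr1 and Egr2 the step to E9 took the level down to or near its lowest, and it stayed within the low range for several stages. For Hsp90aa1, Hspa8, Hsph1 and Hspd1 the net fall from E9 to E14.5 was larger than the one at E9, but rises interrupted it. Hsph1 was at 514 ± 3.2 CPM at E8.5, 433 ± 8.4 at E9, 279 ± 1.6 at E10.5 and 152 ± 0.87 at E11.5, then at 183 ± 24 at E12, 260 ± 3.0 at E12.5 and 84.1 ± 3.7 at E14.5. At E12 Hspd1 rose by 1.24 (SE 0.09) and Hsp90aa1 by 0.67 (SE 0.08), and at E12.5 Hspa8 rose by 0.59 (SE 0.09) and Hsph1 by 0.50 (SE 0.07). These 4 rises were called without each library of the 2 stages in turn. Smaller rises were less sure. Hsph1 at E12 (0.27) was not called without library c of E12 (0.093, adjusted p = 0.216), Hspa8 at E12 (0.21) without any 1 of 5 libraries (E11.5 a, b or c, E12 b or c, adjusted p from 0.0547 to 0.783), and Hspa8 at E9.5 (0.25) without any 1 of the 6 libraries (adjusted p from 0.0730 to 0.125).

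Levels spread widely within both kinds of gene. Per kilobase of exon, the mean at E8.5 was 908 CPM for Hspa8, 603 for Hspd1, 531 for Hsp90aa1 and 411 for Hspe1. It was 76.6 for Ier2, 53.0 for Jun, 49.1 for Jund, 13.8 for Egr1, 11.8 for Fos and 6.87 for Fosb, and 0.397 for Egr3. The heat shock genes Dnajb1 (42.3), Hspa1b (4.93), Hspa1a (2.13) and Hspb1 (0.797) lay among or below these. So the members with the steepest falls were, at E8.5, far below Hspa8, Hspd1, Hsp90aa1 and Hspe1 in level, but not below every chaperone.

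Sample make-up also differed between E8.5 and E9. Summed CPM of 6 surface epithelium markers ran from 223 to 242 at E8.5 and from 164 to 175 at E9, and of 5 Schwann cell precursor markers from 122 to 129 and from 74.6 to 79.4. Summed markers were lower at E8.5 for mesenchyme and osteoblasts (255 to 262 against 366 to 388, 10 genes), neurons (116 to 124 against 194 to 202, 6 genes), neural progenitors (687 to 717 against 922 to 931, 6 genes), endothelium (287 to 299 against 326 to 342, 6 genes) and red cells (2609 to 2849 against 4274 to 4503, 7 genes). Macrophage markers were near 0 at both stages (1.17 to 1.99 against 2.60 to 3.77, 7 genes), with C1qa and Tyrobp at 0 at E8.5. Muscle markers were at 4.40 to 5.48 against 2.19 to 2.94 (6 genes) and visceral endoderm markers at 5.61 to 6.25 against 3.77 to 4.45 (6 genes). The sums hide markers that went the other way: at E9, 3 of the 10 mesenchyme and osteoblast markers rose, 2 fell and 5 were not called (median log2 fold change 0.0045), and of the 6 endothelium markers 1 rose, 1 fell and 4 were not called. Ribosomal protein genes took 5.03% to 5.38% of counts at E8.5 and 3.87% to 4.19% at E9. The part of these differences in the falls was not tested, and in bulk samples fewer cells of a type and less RNA per cell cannot be told apart.

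With E8.5 left out, all 32 members changed among the stages from E9 to E14.5 (F-test with adjusted p below the threshold), as did 94.3% of all tested genes. Between E9 and E14.5, 14 members rose and 13 fell, against 38.4% and 33% of all tested genes, so the members' shares were near the background. All 3 EGR and all 3 KLF genes rose, and 6 of 9 heat shock genes fell with 1 rising. The other classes went both ways or moved little: of 7 tested AP-1 genes 4 rose and 2 fell, of 8 feedback and growth arrest genes 3 rose and 4 fell, and of the 2 NR4A genes 1 fell. The classes were not compared with each other by a test. These EGR and KLF calls held under DESeq2 size factors and under totals alone. Totals alone raised the median of all genes by 0.39, and of all genes called, the share called higher went from 53.75% to 70.28%. With totals alone the members' split was 16 higher and 9 lower.

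**Figure D4:**
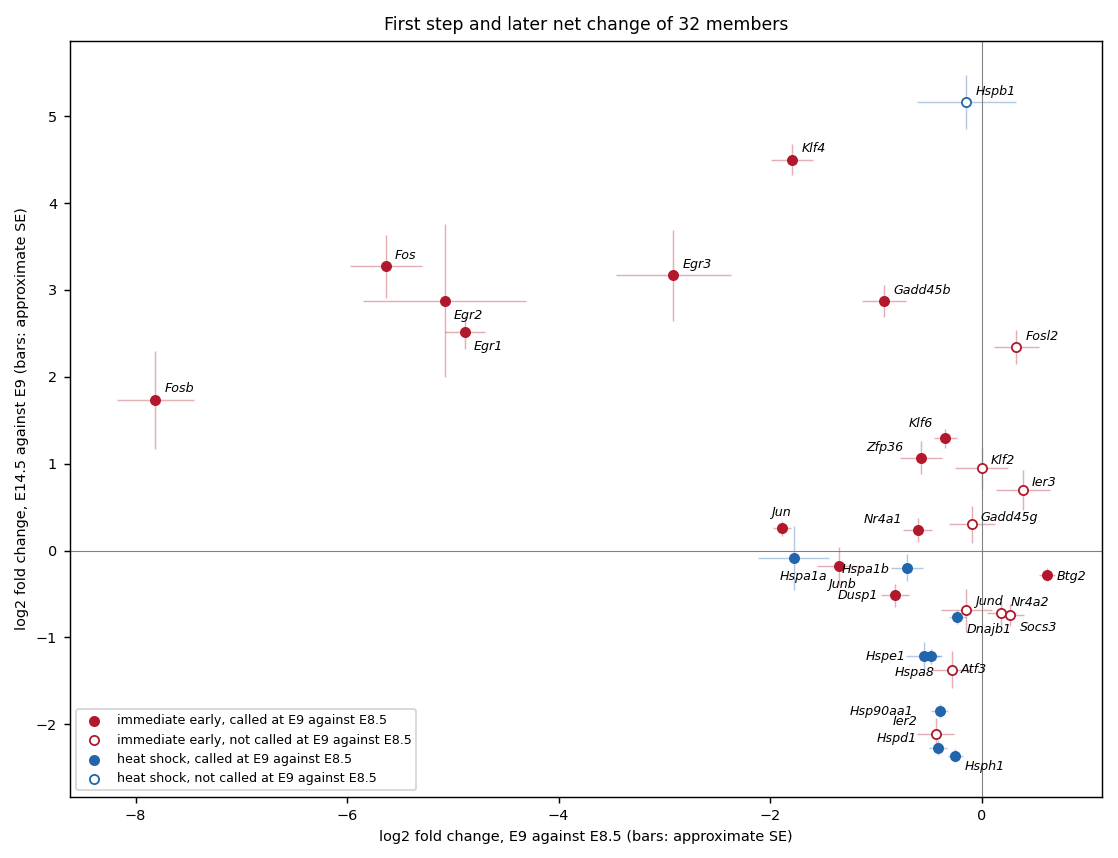
Log2 fold change of each tested member at E9 against E8.5 (x axis) and at E14.5 against E9 (y axis), with bars for the approximate SE. Both changes use the same E9 libraries, so a high or low E9 value shifts them in opposite directions. Fos, Egr1, Egr2, Egr3 and Klf4 sit at upper left, Hsph1, Hspd1 and Hsp90aa1 at lower right, and Hspb1 at the top with almost no change at the first step.

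Hspb1, a small chaperone of muscle and epidermis, had the largest later change of the members. Its libraries were at 0.471, 0.803 and 0.958 CPM at E9 and at 24.8, 27.5 and 27.6 at E14.5, a rise of 5.16 ± 0.31 (adjusted p = 3.08e-15). The course was not even. At E9.5 it stood at 10.1, 9.34 and 13.2 CPM (3.88 ± 0.32 above E9), then fell by 2.21 to 1.99, 2.69 and 2.34 at E10. At E12 it was at 14.9, 11.99 and 8.44 CPM (1.36 ± 0.24 above E11.5, adjusted p = 1.5e-05), and at E12.5 at 2.81, 2.39 and 4.09 (-1.92 ± 0.26, adjusted p = 2.95e-07). The rise at E13.5 was 3.24 (SE 0.25). Its highest value was 40.6 in library c of E13.5, with 21.3 and 25.9 in a and b.

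Marker sums beside these peaks differed from each other. At E9.5 the epithelium sum was 150 to 161 CPM (164 to 175 at E9), the muscle sum 5.30 to 5.80 (2.19 to 2.94 at E9) and the macrophage sum 31.0 to 34.5 (2.60 to 3.77 at E9). At E12 the epithelium sum was 166 to 206, the muscle sum 13.4 to 22.1 and the macrophage sum 129 to 197. At E14.5 the epithelium sum was 1060 to 1220, the muscle sum 286 to 323 and the macrophage sum 147 to 166. Their part in the Hspb1 levels was not tested. Of its 100-base windows 44.0% also occur in the processed copy Hsp25-ps1.

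Klf4 rose from 1.30, 1.32 and 2.12 CPM at E9 to 35.7, 34.4 and 36.2 at E14.5 (4.50 ± 0.18, adjusted p = 1.76e-19). Most of this came in 2 steps, 1.79 at E11 and 2.01 at E13.5. The E13.5 and E14.5 libraries (29.8 to 36.2 CPM) were all far above the E8.5 libraries, so for Klf4 the E8.5 level was not a maximum. The epithelium sum was 112 to 127 CPM at E12.5 and 929 to 1284 at E13.5. At the same stages the mesenchyme and osteoblast sum was 749 to 817 and 3316 to 3319, and the muscle sum 18.5 to 23.4 and 163 to 214. Neural progenitor and red cell sums were lower at E13.5. The part of any of these in the Klf4 rise was not tested. Against the mean of the later stages Klf4 was not called at E8.5 (-0.09 ± 0.13). With all libraries of E11.5, E12 and E13.5 left out, the later mean lacks these stages, and Klf4 was called higher at E8.5 (0.51, adjusted p = 0.000915).

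Fosl2, the AP-1 gene known for a role in bone cells, rose from 4.89, 8.83 and 9.45 CPM at E9 to 39.6, 40.9 and 36.4 at E14.5 (2.34 ± 0.20, adjusted p = 7.15e-12). The rise of 1.56 at E13.5 was its largest step. Its E8.5 libraries, at 5.79 to 6.39 CPM, were among the low ones, the opposite of Fos. Gadd45b went from 1.77, 3.04 and 2.19 CPM at E9 to 15.8, 18.3 and 17.4 at E14.5 (2.87 ± 0.19, adjusted p = 2.24e-14), with its largest step, 1.76, also at E13.5. Klf6 rose by 1.29 (SE 0.11), Zfp36 by 1.07 (SE 0.19) and Klf2 by 0.95 (SE 0.24).

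Fos and the EGR genes were higher again at E14.5 than at E9, at levels far below E8.5 except in Egr3. Fos was at 4.81, 6.16 and 5.26 CPM at E14.5 (3.27 ± 0.36 above E9, adjusted p = 2.89e-09), and most of the rise came at E12.5, from 0.622, 0.394 and 1.33 to 4.42, 3.89 and 4.45 (2.34 ± 0.35). Fos had also risen by 1.54 (SE 0.42) at E9.5, to 1.62 ± 0.26 CPM, and fallen by 1.06 (SE 0.39) at E10. That fall was not called without E9.5 a or b or E10 a (adjusted p from 0.1115 to 0.224). Egr1 was at 11.7, 11.3 and 12.6 CPM at E14.5 (2.51 ± 0.19). Its largest step was also at E12.5, from 3.03, 2.997 and 4.44 to 9.81, 10.9 and 11.7 (3.03-fold, SE 0.18 on the log2 scale, adjusted p = 2.89e-08). Before it, Egr1 rose by 0.83 at E9.5, fell by 0.64 at E10 and rose by 1.11 at E11.5 on the log2 scale. Its level was 2.06 ± 0.40 CPM at E9 and 1.97 ± 0.32 at E11. The E10 fall was not called without E9.5 b or c or E10 a (adjusted p from 0.0737 to 0.144). Egr3 rose by 3.17 (SE 0.52). Egr2 (2.88 ± 0.88) and Fosb (1.74 ± 0.56) rose only to 0.657 ± 0.25 and 0.642 ± 0.32 CPM. The Fosb call was lost without library b of E14.5 (1.32, adjusted p = 0.0631). The small rise of Jun (0.25 ± 0.08) was lost without library a of E9 (0.21, adjusted p = 0.0554), and that of Ier3 (0.70 ± 0.23) without library c of E9 (0.45, adjusted p = 0.0932). With the length trend removed neither was called (0.072 and 0.46, adjusted p = 0.387 and 0.0680), nor was Jun with no filter on counts (0.0696).

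**Figure D5:**
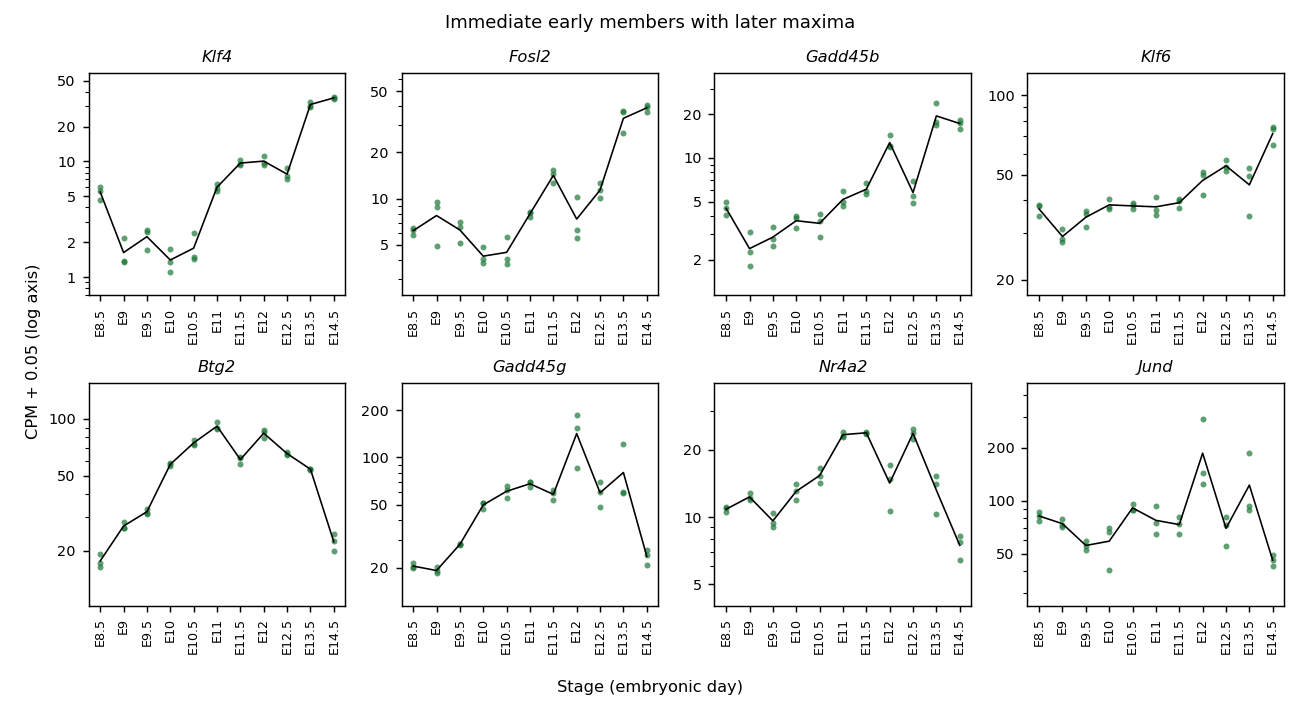
CPM plus 0.05 on a log axis for 8 immediate early members whose highest stage was after E8.5, with single libraries as points and stage means as a line. Klf4, Fosl2 and Klf6 are highest at E14.5, Gadd45b at E13.5, Btg2 at E11, Nr4a2 at E11.5, and Gadd45g and Jund at E12, where their libraries spread most.

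The falls between E9 and E14.5 were led by chaperones. Hsph1 went from 439, 437 and 424 CPM to 80.0, 87.1 and 85.3 (-2.36 ± 0.07, adjusted p = 5.23e-22). Hspd1 went from 1239, 1154 and 1203 to 234, 252 and 260 (-2.27 ± 0.09, adjusted p = 1.84e-19), and Hsp90aa1 from 1646, 1514 and 1594 to 388, 460 and 472 (-1.85 ± 0.08, adjusted p = 2.48e-18). In none of the 3 did the E9 and E14.5 libraries overlap. Neural progenitor markers were also lower in sum at E14.5, going from 922 to 931 CPM at E9 to between 147 and 151. Red cell markers went from 4274 to 4503 CPM to between 1077 and 1266, and the sums of the other marker lists were higher at E14.5. The part of any of these in the falls was not tested. Hspa8 fell by 1.22 (SE 0.09), Hspe1 by 1.22 (SE 0.17) and Dnajb1 by 0.76 (SE 0.08). Hspa1a and Hspa1b were not called (-0.09 ± 0.36 and -0.20 ± 0.15).

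Ier2 was the immediate early gene with the largest fall, from 90.2, 85.8 and 82.7 CPM at E9 to 21.5, 18.4 and 20.05 at E14.5 (-2.11 ± 0.18, adjusted p = 1.45e-11). Fos and Egr1 rose over the same span. Atf3 fell by 1.37 (SE 0.21), Socs3, a brake on cytokine receptors, by 0.74 (SE 0.13), Nr4a2 by 0.72 (SE 0.14), Jund by 0.69 (SE 0.25), Dusp1 by 0.52 (SE 0.13) and Btg2 by 0.28 (SE 0.08). With totals alone, Jund, Dusp1 and Nr4a2 were not called (adjusted p = 0.227, 0.434 and 0.0593) and Btg2 turned to 0.11. Junb, Nr4a1 and Gadd45g were not called. Nr4a1 and Gadd45g were called higher with totals alone (0.62 and 0.69, adjusted p = 5.675e-05 and 0.00169) and with the E9 and E14.5 libraries alone in the fit (0.27 and 0.33, adjusted p = 0.0260 and 0.00208). Both were also called higher with E11.5, E12 and E13.5 left out (adjusted p = 0.0324 and 0.00329). So was Nr4a1 with DESeq2 size factors (0.0366), a stricter filter (0.0355) and DESeq2 (0.0276), and Gadd45g with no filter (0.0474). With the length trend removed, Junb (-0.44, adjusted p = 0.0366) and Hspa1b (-0.40, adjusted p = 0.0196) were called lower. Btg2, lowest at E8.5, had its highest level in between, 91.5 ± 4.5 CPM at E11.

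From E12 on, calls were frequent at every step, among the members and among all genes. At E12, 21 members rose and 3 fell (33.3% and 35.6% of all tested genes), at E12.5, 7 rose and 15 fell (32% and 31%), at E13.5, 16 rose and 6 fell (27.2% and 25.9%), and at E14.5, 3 rose and 17 fell (24% and 26.9%). In either direction 24, 22, 22 and 20 of the 32 members were called (68.8%, 63%, 53.1% and 50.9% of all tested genes). More members rose than fell at E12 and E13.5 and more fell than rose at E12.5 and E14.5, with exceptions at each step: Fos, Fosb, Fosl2, Egr1, Nr4a2, Hspa8 and Hsph1 were the 7 that rose at E12.5. These are the stages where libraries stood apart. Without library a of E12, 19 members rose at E12 and 3 fell, where 5958 and 6810 of all 20580 tested genes did. Library b of E12, with 7.23% of counts in ribosomal protein genes, stayed in that fit. Without library c of E13.5, 13 members rose at E13.5 and 6 fell, where 4764 and 4617 of all 20610 tested genes did.

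The member with the largest change at E12 was Hspe1, from 114, 117 and 120 CPM at E11.5 to 608, 397 and 261 (1.85 ± 0.17, adjusted p = 3.4e-10, and 1.43 without library a). Within E12 it was ordered as the ribosomal protein share was, at 9.48%, 7.23% and 4.71% of counts. Gadd45g, a growth arrest gene, was at 185, 155 and 85.8 CPM at E12 and Jund at 290, 144 and 125, in the same order. Other members ran in the reverse order: Hspa8 was at 1154, 1481 and 1767 CPM, Hsph1 at 159, 185 and 206, and Jun at 105, 118 and 125. At E13.5 Gadd45g and Jund were highest in library c, at 60.2, 59.1 and 121 CPM and at 93.1, 88.0 and 186. Gadd45g then had the largest change at E14.5 (-1.77 ± 0.21, and -1.35 without library c of E13.5). Jund overlaps the antisense gene Gm11175 over 52.6% of its exonic bases, and the 2 cannot be told apart where strand is not stated. Red cell markers summed to 9636 to 25085 CPM at E12, and the part of library make-up in these values was not tested.

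The earlier steps held fewer calls, among the members and among all genes. At E9.5, 5 members rose and 6 fell (11.1% and 11.7% of tested genes), led by Hspb1. At E10, 4 rose and 13 fell (14.47% and 12.3%), with the largest change in Fosb, from 0.542 ± 0.25 to 0.0753 ± 0.065 CPM on 28 and 4 counts (-2.72 ± 0.70). At E10.5, 3 rose and 2 fell (5.73% and 2.74%), and the largest, Atf3 (0.71 ± 0.21, adjusted p = 0.0282), was lost without any 1 of 4 libraries (E10 a or c, E10.5 a or c, adjusted p from 0.0626 to 0.132). At E11, 8 rose and 7 fell (19.2% and 17.3%). Atf3 then fell from 4.88, 3.91 and 4.21 CPM to 0.771, 0.999 and 0.947 (-2.25 ± 0.24), without overlap. At E11.5, 4 rose and 8 fell (10.7% and 12.3%), led by Egr1, and the 8 included 7 of the 9 heat shock members. Of these, Hspe1 was not called without any 1 of the 6 libraries (adjusted p from 0.0727 to 0.0947). Hspa1b was not called without E11 c or E11.5 a or b (0.0968 to 0.143). Hsp90aa1, Dnajb1, Hsph1, Hspa8 and Hspd1 were called in each of these fits.

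Related genes outside the 33 were counted at E9 as well, where 12.53% of all tested genes were called higher and 7.66% lower. Their difference from the members was not tested. Of 27 tested genes that growth factors also induce, 8 rose and 4 fell. Ccn1, a matrix protein gene driven by serum response factor, had the largest fall, from 69.4 ± 2.8 to 23.4 ± 0.085 CPM (-1.57 ± 0.11, adjusted p = 6.63e-12), and Klf5 the largest rise (1.22 ± 0.26). Egr4, the fourth EGR gene, was too low to test, at 26 counts over E8.5 and 6 over E9. Of 11 feedback genes of the ERK pathway, 3 rose and 1 fell, with Spry1 up by 0.51 (SE 0.10) and Dusp5 down by 0.55 (SE 0.16). Of 12 upstream factors, Elk1 (0.42 ± 0.14) and Mrtfa (0.38 ± 0.11) rose and none fell, and Srf was not called (-0.19 ± 0.11).

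The related chaperones fell more often than they rose. Of 25 other cytosolic chaperones, 11 fell and 2 rose at E9, with Dnaja1 lowest (-0.57 ± 0.11) and Hspa4l highest (0.73 ± 0.09), and the median was -0.34. Of 6 mitochondrial chaperones, 2 fell and 1 rose (Grpel1 -0.55 ± 0.15, Dnaja3 0.25 ± 0.08). Of 12 genes of the endoplasmic reticulum stress response, 2 fell and 2 rose (Atf4 -0.53 ± 0.13, Trib3 1.36 ± 0.23). Over all 6 lists 18 genes rose and 20 fell. The falls were 42 with the E8.5 and E9 libraries alone in the fit, where 3814 of all 15840 tested genes fell. The rises were 10 to 14 without each library of the 2 stages in turn.

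Between E9 and E14.5, 65 genes of the lists fell and 18 rose, where 33% of all tested genes were called lower and 38.4% higher. All 6 mitochondrial chaperones fell (Lonp1 most, -1.38 ± 0.10), as did 19 of 25 cytosolic chaperones, with Hsp90ab1 at -2.50 ± 0.08 and Cryab, a partner of Hspb1, up by 2.82 (SE 0.21). Of 11 ERK feedback genes 10 fell, with Dusp5 lowest at -3.99 ± 0.21. Of 27 growth factor induced genes 14 fell and 8 rose, from Nr4a3 at -2.08 ± 0.22 to Npas4 at 4.33 ± 0.46, the latter on 4 counts at E9. Of 12 upstream factors 8 fell and 3 rose (Atf1 -0.996 ± 0.088, Crem 0.90 ± 0.13), and of 12 endoplasmic reticulum stress genes 8 fell and 1 rose (Sdf2l1 -2.17 ± 0.17, Ddit3 0.50 ± 0.21). With totals alone 43 genes of the lists fell, where 4294 of all 20073 tested genes fell.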

How the data were processed

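Counts per gene were deposited as whole numbers that were not normalized, with 1 column per library, per the file headers and the values. Per the submitters' processing notes, cutadapt 1.9.1, HISAT2 2.0.1, HTSeq 0.6.1 and the build GRCm38 were used. No source used here gives the annotation release or the strand setting. The deposited table also holds the exonic length of each gene as another value, used for CPM per kilobase and for the length alternative. Columns were tied to stages by name, and their letters match no replicate number in the labels.

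Symbols came from GENCODE M21 (55141 of 55401 genes had one). No 2 libraries of a stage were identical, and none agreed within sampling noise (lowest chi-square per gene 1.85). In R 4.3.3, edgeR 4.0.16 kept 20073 genes by its expression filter, scaled libraries with TMM (factors 0.797 to 1.17) and fitted 1 mean per stage to all 33 libraries (22 residual degrees of freedom). Contrasts were tested by quasi-likelihood F-tests with Benjamini-Hochberg adjustment. SE is approximate, being the log2 fold change divided by the root of F. On simulated counts for E9 against E8.5 over 19165 genes, 38.8% of genes changed 1.5-fold, 61.2% of those changed 2-fold and 80.3% of those changed 4-fold were recovered, with 2 false calls. In this simulation 67, 67 and 66 genes were changed, at E9 alone, and every gene kept 1 mean over the other stages. E14.5 against E9 gave 7 calls beyond the changed genes. In the data 4052 genes were called at E9, and shifts in make-up or in the gene length trend were not simulated, so these rates may not hold there.

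Motifs were searched on both strands of RefSeq promoter windows (GRCm38.p6), 250 bases before to 50 after a start. The members and lists were chosen with earlier results of these data known. Genes named in full were the 8 largest called changes at E9, members called against the majority there, the 6 largest later ranges, the 4 largest rises and falls from E9 to E14.5, the largest change of each later step, and the largest change in each direction of each list. Alternatives were DESeq2 size factors, totals alone, 2 other filters, DESeq2 1.42.0, a replicate block, removal of a gene length trend, other sets of libraries in the fit, and leaving out each library.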

Additional observations from a re-analysis of the deposited data

How the results depend on the processing

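The count of members that fell at E9 was 18 to 23 under the alternatives and 16 to 20 without each library in turn, against 21. The other leave-one-out ranges were 1 to 1 for members that rose at E9, 19 to 20 and 5 to 7 for E8.5 higher and lower than the later mean, 31 to 32 for any later change, 13 to 14 and 13 to 13 for rises and falls from E9 to E14.5, and 140 to 153 for calls over the 9 later steps (148 in all). For the related lists they were 10 to 14 rises and 17 to 19 falls at E9, and 15 to 16 rises and 60 to 63 falls from E9 to E14.5. With the libraries compared alone in the fit, 2 members rose at E9, where 3759 of all 15840 tested genes rose. In that fit 42 genes of the lists fell, where 3814 of all genes fell. With E11.5, E12 and E13.5 left out, 39 list genes fell at E9 (3473 of all 19703 tested genes). With a gene length trend removed, 33 fell (2925 of all 20073). With totals alone 43 list genes fell to E14.5 (4294 of all 20073). With the length trend removed, Btg2 no longer lay below all later libraries (0 members).

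Members that were near 0 changed sign. At E9, Klf2 was at 0.0408 with totals alone, 0.0393 with no filter, 0.0107 with the stricter filter, 0.000871 with the replicate block, and from -0.096 without E9 b to 0.0639 without E9 c (0.0108 and 0.0258 without E8.5 b and E9 a). Hspb1 ranged from -0.35 without E9 c to 0.12 without E8.5 a, with 0.10 without E9 a. From E9 to E14.5, totals alone gave 0.21 for Junb, 0.11 for Btg2, 0.30 for Hspa1a and 0.19 for Hspa1b, and Hspa1a ranged from -0.27 without E14.5 a to 0.092 without E14.5 b, with 0.034 without E9 b. For E8.5 against the later mean, totals alone gave -0.17 for Jund, -0.20 for Ier3, -0.0059 for Zfp36 and -0.044 for Socs3. Ier3 was at -0.074 and -0.042 without E8.5 b and c. With the length trend removed, Klf2 was at 0.047 and Klf4 at 0.081, and without E8.5 a Klf4 was at 0.030. The cause of these changes of sign was not tested. Leaving out E11.5, E12 and E13.5 also takes these stages out of the later mean, so a different comparison is made. In it Klf2 was at 0.20 and Klf4, called higher at E8.5, at 0.51 (adjusted p = 0.000915).

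All genes called at E9 numbered 4052, against 7376 with E11.5, E12 and E13.5 left out and 7573 with E8.5 and E9 alone. Of those calls 62.07% were higher, 42.61% with the length trend removed and 49.64% with E8.5 and E9 alone. For E8.5 against the later mean the share called higher was 46.55%, 30.07% with totals alone and 58.16% with the length trend removed. Totals alone moved that median by -0.23. The column letters do not pair libraries: same-letter libraries had a median correlation of deviations of -0.0031, from -0.58 to 0.18, and 6 of 33 correlated best with their own letter. With the letter as a replicate block, 20 members fell at E9. The fit with the libraries compared alone is the fit of all libraries for E8.5 against the later mean, and no step fit was made without E11.5, E12 and E13.5. Fosb and Egr2 rest on few counts at every stage after E8.5, and Egr3 on few from E9 to E10.5, which limits the precision of their folds.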
